A study of Drosophila melanogaster with 6 samples.

Results

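Glycolysis splits glucose into pyruvate in a chain of cytosolic enzymes, and the glycerol phosphate branch leaves it at dihydroxyacetone phosphate, whose reduction by Gpdh1 regenerates NAD+ and supplies glycerol 3-phosphate for lipid synthesis and for the mitochondrial shuttle. In Drosophila, genes of the chain are known to be switched up together in mid-embryogenesis by the nuclear receptor ERR, and lactate dehydrogenase and Gpdh1 then share the work of keeping the cytosolic redox balance. Transcripts of this pathway were examined here in whole embryos of a clbn knock-out and of w1118, the white-eyed laboratory stock used as wild type. The list held 10 genes, namely Pfk, Tpi, Gpdh1, Gapdh1, Gapdh2, Pgk, Pglym78, Eno, Pyk and Ldh, together with the Affymetrix control probe sets named GAPDH. Genes were taken by symbol, each from a probe set annotated with that symbol alone, and where a gene had several such sets it was represented by the one chosen by its measured level, the highest mean over all 6 arrays, so a level as such is no finding. By this rule 7 of the 10 genes were found, with 10 probe sets, among 11982 genes in all, and 7 GAPDH control sets were found besides. Gapdh2, Pyk and Ldh were not named by a probe set of their own and were not analysed here.

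The study put embryos of clbn knock-out flies (3 arrays) beside embryos of w1118 flies labelled wild type (3 arrays), collected at 0 to 24 h after laying from flies kept at 25 °C. The labels give w1118 as the strain background of both groups, but name no allele and no backcross, so an effect of clbn loss and other differences between the stocks cannot be told apart. Clbn (Caliban, CG11847), the Drosophila counterpart of the ribosome quality control factor NEMF, acts on stalled ribosomes, and the series title links it to mitochondrial form and redox state in the gut. No label says whether replicate arrays had their own embryo collections, and every p-value here measures only the spread between these arrays, which may be partly technical.

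Levels are log2 expression values per probe set, and 1 unit is a doubling. The array medians lay between 6.17 and 6.36. Clbn itself read 5.42, 5.27 and 5.14 in the knock-out arrays, against 7.86, 8.25 and 8.44 in the w1118 arrays. Knock-out array 1 stood apart from the other 5 in RNA quality, as judged from the distance between the 3′ and 5′ control probe sets, which widens when transcripts are copied incompletely. This distance was 1.47 for actin in knock-out array 1, against 0.66 to 0.88 in the other arrays, and 0.997 for eIF-4a, against 0.510 to 0.622 in the others. The differences of the members and of the GAPDH control sets are therefore also given without this array.

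All 7 measured genes of the list had lower means in the knock-out embryos, but the differences were small and none passed the test. The log2 differences (knock-out minus w1118) ran from −0.30 for Gpdh1 to −0.09 for Pglym78, with a median of −0.27, while the median over all 11982 genes was 0.02. Of those 11982 genes, 5270 had a difference below 0. With limma's moderated test and Benjamini-Hochberg adjustment over all 18769 probe sets, 0 of the 7 were called at an adjusted p below 0.05, where 4.51% of all genes (3.56% of probe sets) were called, 1.88% as higher and 2.63% as lower. At an unadjusted p below 0.05 there were 5 of 7, all lower, against 22.8% of all genes in either direction and 11.1% as lower. For 5 of 7 every knock-out array was on one side of every w1118 array, again the lower side, against 28.8% of all genes in either direction and 13.1% as lower. Without knock-out array 1 the median was −0.22 and 0 of 7 were called. At an unadjusted p below 0.05 there were 5, all lower (19.8% of all genes in either direction, and 1234 of the 11982 as lower). The genotypes did not overlap for 6, all lower (17.5% of all genes as lower). On simulated data, with 200 of 18769 sets changed in each run, the fit called 0.823% of the sets changed by 0.25 log2. It called 41.7% of those changed by 0.5 log2. These rates are taken over sets of all levels, and fewer sets were changed than the 668 called here, so they need not hold for the members. A count of 0 called members does not show that they were unchanged. The members are described by these counts only, since they were picked with earlier results of these arrays known.

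**Figure D1:**
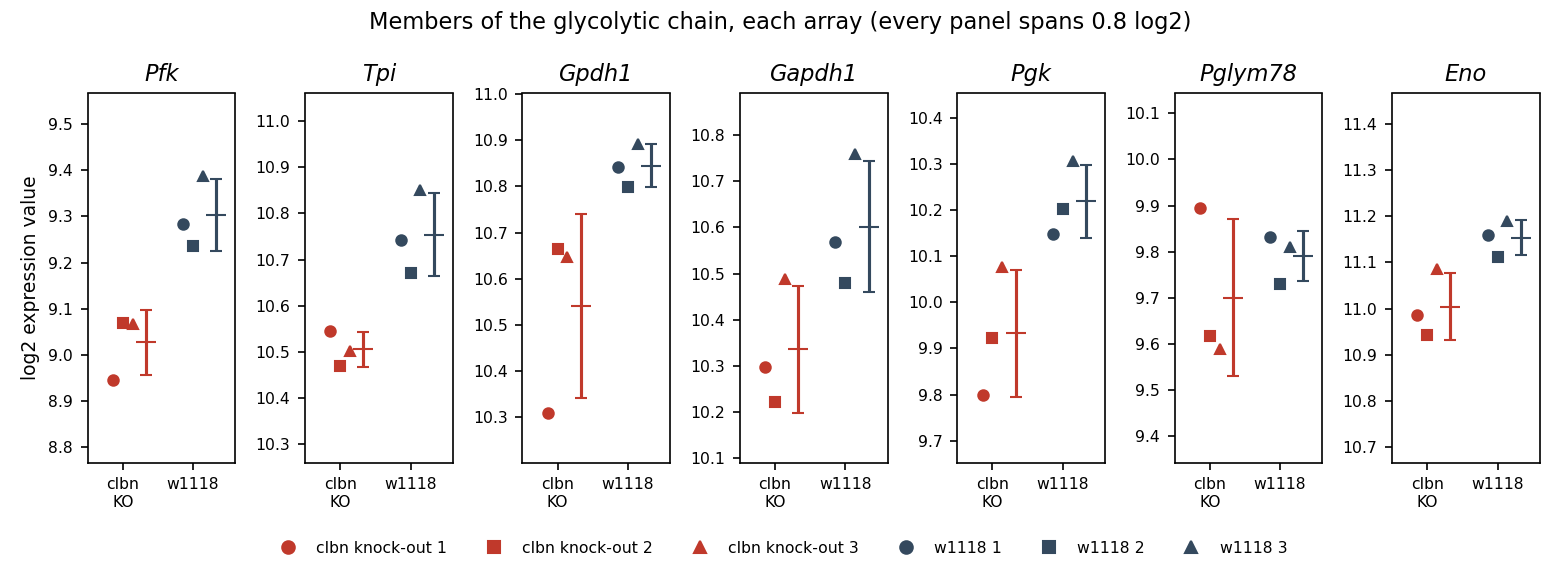
Log2 expression value (vertical axis) of the 7 measured genes on each array, clbn knock-out in red to the left of w1118 in blue-grey, with a symbol for each replicate number and the mean ± SD of 3 arrays beside the points. Each panel spans 0.8 log2; the genotypes are apart for Pfk, Tpi, Gpdh1, Pgk and Eno and overlap for Gapdh1 and Pglym78.

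The preparatory steps of the chain were represented by Pfk and Tpi. Pfk (CG4001, arm 2R) encodes phosphofructokinase, which commits fructose 6-phosphate to glycolysis and is its main control point. Pfk read 8.95, 9.07 and 9.07 in the knock-out arrays, against 9.28, 9.24 and 9.39 in the w1118 arrays. The genotypes did not overlap, and knock-out array 1 was the lowest of the 6. The difference was −0.28 (SE 0.08, 95% interval −0.46 to −0.10), a level 1.21-fold higher in w1118, and Pfk had the smallest adjusted p among the members (limma, 0.107). With knock-out array 1 left out the difference was −0.23 (limma adjusted p = 0.201). Tpi (CG2171, arm 3R) encodes triosephosphate isomerase, which interconverts the triose phosphates at the point where the glycerol phosphate branch leaves. It read 10.55, 10.47 and 10.50 in the knock-out arrays, against 10.74, 10.67 and 10.85 in the w1118 arrays. The 3 knock-out arrays lay close together, all below the lowest w1118 array. The difference was −0.25 (SE 0.08, 95% interval −0.43 to −0.07; limma adjusted p = 0.13), and −0.27 without knock-out array 1 (limma adjusted p = 0.161).

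Gpdh1 (CG9042, arm 2L), the cytosolic glycerol-3-phosphate dehydrogenase at the head of the branch, had the largest difference of the list in its brightest probe set. That set read 10.31, 10.67 and 10.65 in the knock-out arrays, against 10.84, 10.80 and 10.89 in the w1118 arrays. Knock-out array 1 lay far below its group, and knock-out arrays 2 and 3 lay 0.13 and 0.25 below the w1118 arrays of the same number. The difference was −0.30 (SE 0.11, 95% interval −0.55 to −0.06; limma adjusted p = 0.175). Without knock-out array 1 it was −0.19 (limma adjusted p = 0.266), so this array moves the value by more than 1.5 times. A further 3 probe sets carry the symbol, and they did not move alike. The next brightest read 10.14, 10.24 and 10.24 in the knock-out arrays, against 10.51, 10.35 and 10.47 in the w1118 arrays (difference −0.23, SE 0.08, limma adjusted p = 0.151), with no overlap. The set of intermediate level read 9.32, 9.83 and 10.14 in the knock-out arrays, against 9.91, 9.53 and 10.34 in the w1118 arrays. Its arrays spread over more than 0.8 log2 within each genotype, and its difference was −0.16 with an SE of 0.25. The dimmest read 7.38, 7.60 and 7.24 in the knock-out arrays, against 7.38, 7.41 and 7.40 in the w1118 arrays, a difference of 0.01 (95% interval −0.22 to 0.24). Which transcripts of Gpdh1 each set detects was not analysed here, and the difference between the sets was not tested.

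Gapdh1 (CG12055, arm 2R) encodes glyceraldehyde-3-phosphate dehydrogenase, the enzyme that oxidises the triose phosphate and reduces NAD+. It read 10.30, 10.22 and 10.49 in the knock-out arrays, against 10.57, 10.48 and 10.76 in the w1118 arrays. The genotypes overlapped by a narrow margin, since knock-out array 3 lay just above w1118 array 2. The difference was −0.27 (SE 0.10, 95% interval −0.51 to −0.02; limma adjusted p = 0.224), and −0.25 without knock-out array 1 (limma adjusted p = 0.355). Within the numbered pairs it was nearly constant, at −0.27, −0.26 and −0.27 in pairs 1, 2 and 3. Pgk (CG3127, arm 2L) encodes phosphoglycerate kinase, the next enzyme and the first to make ATP. It read 9.80, 9.92 and 10.08 in the knock-out arrays, against 10.15, 10.20 and 10.31 in the w1118 arrays. All knock-out arrays were below all w1118 arrays, by a difference of −0.29 (SE 0.09, 95% interval −0.50 to −0.07; limma adjusted p = 0.147). It was −0.22 without knock-out array 1 (limma adjusted p = 0.272).

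Among the members, the last measured steps had the smallest differences. This did not hold for the whole chain, since the earlier steps Pgi and Ald1, described below, differed by less than Eno in their brightest sets. Without knock-out array 1 the difference of Pglym78 was also level with that of Gpdh1, at −0.19. Pglym78 (CG1721, arm 3R) encodes phosphoglycerate mutase. It read 9.90, 9.62 and 9.59 in the knock-out arrays, against 9.83, 9.73 and 9.81 in the w1118 arrays. Knock-out array 1 was the highest of all 6 here, unlike in any other member, and the other knock-out arrays were the lowest. The difference was −0.09 (SE 0.10, 95% interval −0.32 to 0.14; limma adjusted p = 0.687), and −0.19 without knock-out array 1 (limma adjusted p = 0.272). Eno (CG17654, arm 2L) encodes enolase, which makes phosphoenolpyruvate. It read 10.99, 10.94 and 11.08 in the knock-out arrays, against 11.16, 11.11 and 11.19 in the w1118 arrays, without overlap. The difference was −0.15 (SE 0.07, 95% interval −0.32 to 0.02; limma adjusted p = 0.322), and −0.14 without knock-out array 1 (limma adjusted p = 0.457). The intervals of these 2 genes overlap those of the other 5, and whether they differ from them was not tested. The sets used for Tpi and Eno are marked by the manufacturer's suffix for sets that match several transcripts, so other transcripts may add to their levels.

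Members shared their order over the arrays to a degree. W1118 array 3 was the highest of the 6 for 6 of the 7 genes, and knock-out arrays 1 and 2 were each the lowest for 3. The mean of the members' deviations from their own means was −0.15, −0.14 and −0.06 in knock-out arrays 1 to 3, against 0.10, 0.05 and 0.19 in w1118 arrays 1 to 3. Within all 3 numbered pairs the knock-out was the lower for 6 of the 7 genes, where 21.0% of all genes had this pattern, and Pglym78 was the exception, with 0.06 in pair 1. For the 5 genes without overlap between genotypes this holds under any pairing, so only Gapdh1 adds to the earlier count. The pair differences ran from −0.35 to −0.20 for Tpi and from −0.34 to −0.17 for Pfk.

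**Figure D2:**
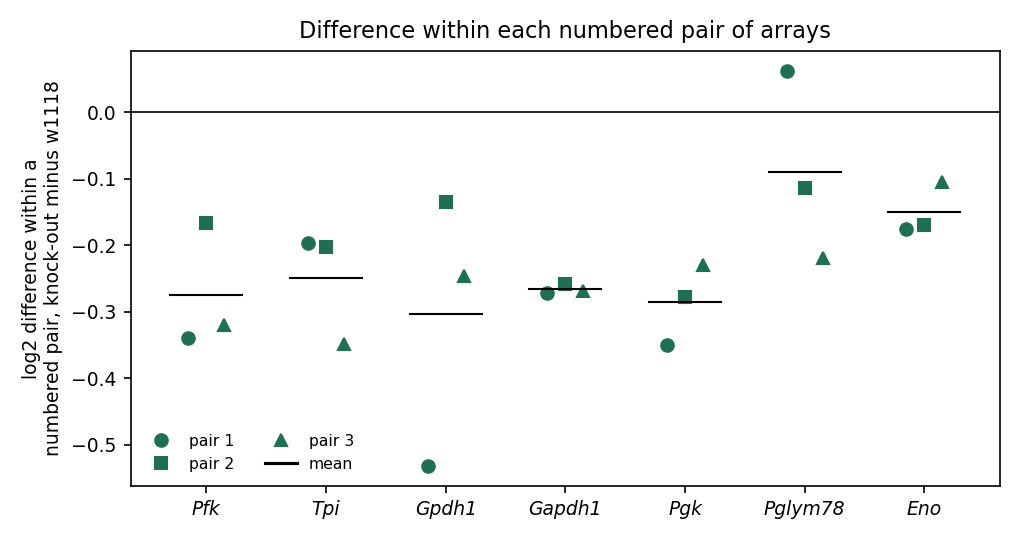
Log2 difference, clbn knock-out minus w1118, within each of the 3 pairs of arrays that share a replicate number (symbols), with the mean of the pairs as a bar, for the 7 measured genes. The pairs of Gapdh1 lie within 0.02 of each other, those of Gpdh1 run from −0.53 to −0.13, and pair 1 of Pglym78 is the single value above 0.

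The genes of highest likeness to the members' mean profile, among 5984 genes whose mean lay above the median of all genes, were CAH2 (Pearson r = 0.998 over 6 arrays), CG14397 (0.995), CG30159 (0.994), cwo (0.994) and CG7724 (0.994). CAH2 encodes a carbonic anhydrase and cwo encodes a repressor of the circadian clock. In all, 436 of the 5984 had an r above 0.9, so a profile of this kind was common on these arrays. CAH2 itself differed by −0.45 between the genotypes. The 6 points share the split between genotypes, and no p is given.

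The 7 control probe sets named GAPDH all had lower means in the knock-out. They form a family of 3 sets, whose differences of −0.66 to −0.54 were larger than that of any member, and a family of 4 sets named r2, whose differences depended more on knock-out array 1. The annotation used gives no gene for them, and its gene table lists GAPDH among the synonyms of Gapdh1, Gapdh2 and also Gpdh1. Of the family of 3, the 3′ set read 10.74, 11.05 and 11.03 in the knock-out arrays, against 11.47, 11.42 and 11.55 in the w1118 arrays. The middle set read 9.73, 10.08 and 10.22 in the knock-out arrays, against 10.59, 10.53 and 10.71 in the w1118 arrays. The 5′ set read 9.48, 10.26 and 10.21 in the knock-out arrays, against 10.59, 10.62 and 10.73 in the w1118 arrays. In each of these 3 sets all knock-out arrays were below all w1118 arrays, a pattern that 13.1% of all genes had, and knock-out array 1 was the lowest. Over the 6 arrays the 3′, middle and 5′ set correlated with Gapdh1 at r = 0.794, 0.844 and 0.693. With the brightest Gpdh1 set r was 0.957, 0.968 and 0.996, but Pfk also reached 0.982 with the 3′ set and Pgk 0.972 with the middle set. Which gene these 3 sets detect was not analysed here.

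When the controls were kept in the fit, which was chosen after seeing the data, 3.54% of the 18952 sets were called, and among the 7 GAPDH sets the 3′ and the middle set fell. The 3′ set differed by −0.54 (SE 0.10, limma adjusted p = 0.0309) and the middle set by −0.60 (SE 0.13, limma adjusted p = 0.0498). The 5′ set differed by −0.66 (SE 0.19) and was not called (limma adjusted p = 0.119). Both calls depended on the arrays used. That of the 3′ set was lost without w1118 array 1, 2 or 3 (limma adjusted p = 0.126, 0.0609 and 0.122) and without knock-out array 2 or 3 (0.0558 and 0.0618); over all its alternatives the adjusted p ran from 0.00794 to 0.126. That of the middle set was lost without w1118 array 1, 2 or 3 (limma adjusted p = 0.165, 0.0809 and 0.175), without knock-out array 2 (0.104) and with quantile normalisation (0.0506), and ran from 0.0157 to 0.175. Without knock-out array 1, the array with the widest distance between 3′ and 5′ sets, the 3′ set differed by −0.44, the middle set by −0.46 and the 5′ set by −0.41 (limma adjusted p = 0.0302, 0.0425 and 0.0425), so all 3 were called, while the largest difference of a member without that array was −0.27, for Tpi. The differences of the 5′ set with and without that array stand apart by more than 1.5 times.

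The distance between the 3′ and the 5′ GAPDH set did not separate the genotypes. It was 1.27, 0.80 and 0.83 in the knock-out arrays, against 0.89, 0.81 and 0.82 in the w1118 arrays. The means were 0.96 ± 0.26 in the knock-out and 0.84 ± 0.04 in w1118 (SD, n = 3 each; exact 2-sided permutation p = 0.8, where the smallest possible is 0.1). The difference of 0.12 was −0.03 without knock-out array 1. Knock-out arrays 2 and 3 read below every w1118 array at the 3′ set, with a distance of 0.80 and 0.83, against 0.81 to 0.89 in w1118. Whether RNA quality had a part in the lower GAPDH signal was not tested.

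In the second family of control sets, named r2 GAPDH, both 3′ sets lay close to Gpdh1. The r2 3′ set with the suffix for several transcripts of a gene read 10.27, 10.67 and 10.69 in the knock-out arrays, against 10.89, 10.78 and 10.92 in the w1118 arrays. Of 18769 probe sets, the one nearest to it by the largest difference over the 6 arrays was the brightest Gpdh1 set, which differed from it by at most 0.0452 on any array. The other r2 3′ set read 10.16, 10.24 and 10.27 in the knock-out arrays, against 10.41, 10.32 and 10.43 in the w1118 arrays, and the next Gpdh1 set was the third nearest to it, differing by at most 0.0946. These r2 3′ sets are therefore not counted as observations apart from Gpdh1, and the gene they detect was not analysed here. Their differences were −0.32 and −0.16, and −0.19 and −0.13 without knock-out array 1. The r2 middle and 5′ sets lay further off, up to 0.932 and 3.46 from the brightest Gpdh1 set, and their gene was not analysed either. They had differences of −0.44 and −0.41, which became −0.18 and −0.05 without knock-out array 1. Without that array all 4 r2 differences were smaller than those of Tpi and Gapdh1. None of the 4 r2 sets was called with all 6 arrays (limma adjusted p = 0.205 to 0.465) or without knock-out array 1 (0.302 to 0.799).

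**Figure D3:**
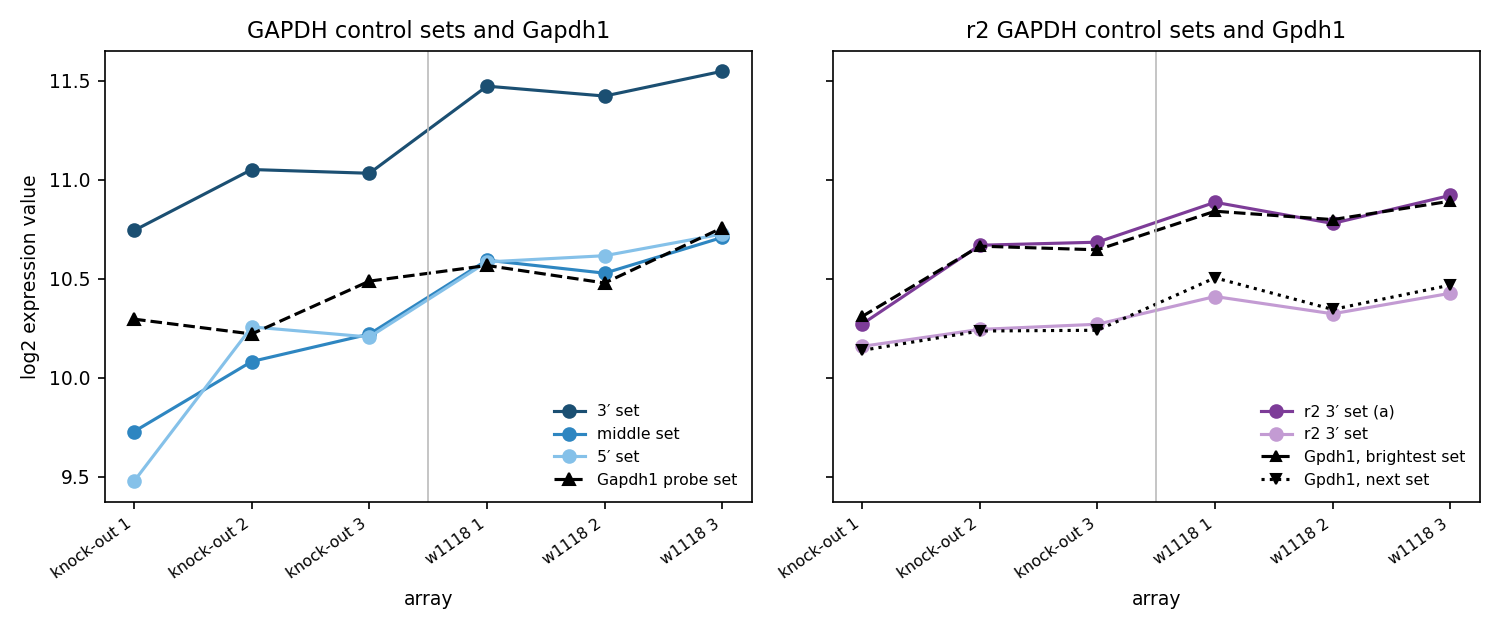
Log2 expression value (vertical axis) on each array (horizontal axis, clbn knock-out left of the grey line and w1118 right of it) of the GAPDH control sets with Gapdh1 (left panel), and of the r2 GAPDH 3′ control sets with the 2 brightest Gpdh1 sets (right panel). Lines only join the values of a probe set. The r2 3′ sets lie on the Gpdh1 sets, at most 0.0452 and 0.0946 away, while the GAPDH sets do not lie on Gapdh1.

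The other enzymes of the chain also had differences below 0 in their brightest sets, and none was called. Of 6 genes listed for them, limma called 0 (2 had an unadjusted p below 0.05), and all 6 differences were below 0 (median −0.13), where 5270 of all 11982 genes were below 0. Hex-C, a hexokinase, which phosphorylates glucose on entry, read 6.71, 7.05 and 6.92 in the knock-out arrays, against 7.37, 7.25 and 7.71 in the w1118 arrays (difference −0.55, SE 0.14, limma adjusted p = 0.0784). Hex-A, another hexokinase, differed by −0.29 (limma adjusted p = 0.263). Pgi, glucose-6-phosphate isomerase, differed by −0.13 (limma adjusted p = 0.382), with no overlap between genotypes. Ald1, the aldolase that cuts the hexose into trioses, differed by −0.13 in its brightest set (limma adjusted p = 0.368) and by 0.12 in its other set, so its direction is not settled. The testis hexokinase genes Hex-t1 and Hex-t2, named after their values were seen, differed by −0.02 each, and without knock-out array 1 the differences below 0 were 4 of 6.

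**Figure D4:**
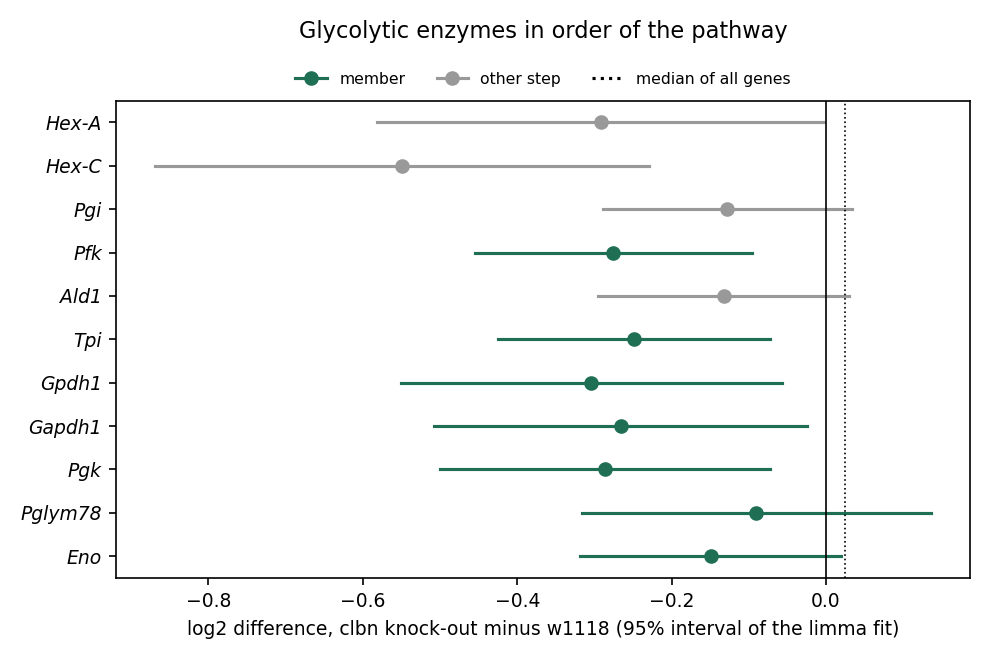
Log2 difference, clbn knock-out minus w1118, with its 95% interval from the limma fit (horizontal axis) for the 7 members (green) and 4 other enzymes of the chain (grey), from glucose entry at the top to enolase at the bottom. All 11 points lie left of 0 and of the median of all genes (dotted, 0.02), and 7 intervals, those of Hex-A, Hex-C, Pfk, Tpi, Gpdh1, Gapdh1 and Pgk, lie wholly below 0.

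Over a wider set of carbon metabolism there was no common direction. Of the 66 measured genes in 8 lists, the other steps of the chain and the regulators included, 30 differences were above 0 and 36 below, with a median of −0.01. Dim genes, such as several paralogues of the members, are among them, and a difference near 0 says little for these. Of the 66, limma called 1 as higher and 1 as lower, where 1.88% and 2.63% of all genes were called so. With the replicate number as a block it called 4 in all, while its calls over all probe sets rose from 668 to 978. The block added the glycogen phosphorylase gene Glyp (limma adjusted p = 0.0477) and the pyruvate carboxylase gene PCB (0.0496, named after its value was seen). Pepck2, a phosphoenolpyruvate carboxykinase of gluconeogenesis, rose by 0.57 log2 (SE 0.08, limma adjusted p = 0.00951) and was called under all 15 alternatives. It read 10.14, 10.03 and 10.08 in the knock-out arrays, against 9.61, 9.42 and 9.51 in the w1118 arrays. Its neighbour in function Pepck1, named after its value was seen, differed by −0.35 (limma adjusted p = 0.0755). Idh3b, a subunit of the mitochondrial isocitrate dehydrogenase, fell by 0.71 log2 (SE 0.10, limma adjusted p = 0.00992), a call lost without w1118 array 1 (limma adjusted p = 0.0631, range over its alternatives 0.00189 to 0.0631). It read 9.44, 9.76 and 9.59 in the knock-out arrays, against 10.32, 10.38 and 10.21 in the w1118 arrays. The citrate cycle list had 12 of 13 differences below 0 (median −0.11), where 5270 of all 11982 genes were below 0. Of the 13, 2 had an unadjusted p below 0.05 (11.1% of all genes as lower) and 3 did not overlap (13.1% of all genes as lower), all lower.

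Paralogues and the rest of the glycerol phosphate branch also had differences on either side of 0. The paralogue list had 0 of 8 genes called by limma (1 at an unadjusted p below 0.05), and its median was 0.03. Several were dim. CG7069, CG7362 and CG12229, named after their values were seen, had genotype means of 3.22 to 4.04, below the first quartile of every array (4.28 to 4.36). A difference near 0 says little for them. CG9961, a paralogue of Pgk, read 6.81, 6.73 and 6.64 in the knock-out arrays, against 6.55, 6.25 and 6.41 in the w1118 arrays, a difference of 0.32 in the opposite direction to Pgk (limma adjusted p = 0.122). CG2964, a paralogue of the pyruvate kinase gene, differed by −0.11 (limma adjusted p = 0.693). Of 8 other glycerol phosphate genes 0 were called (1 at an unadjusted p below 0.05; median 0.01). Gpdh3, a paralogue of Gpdh1, differed by −0.28 (limma adjusted p = 0.252) and the glycerol kinase gene Gk2 by 0.12 (0.521). Gpo1, the mitochondrial partner of Gpdh1 in the shuttle, was not analysed here.

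Sugar stores and the pentose phosphate pathway had differences on either side of 0. The glycogen synthase gene Glys differed by 0.26 (limma adjusted p = 0.122) and Glyp, which breaks glycogen down, by −0.49 (0.0649), each without overlap, and 0 of 10 glycogen and trehalose genes were called (3 at an unadjusted p below 0.05). Rpe, ribulose-phosphate epimerase, differed by 0.42 (limma adjusted p = 0.0888) and CG8036, a transketolase, by 0.24 (0.129). These belong to 5 measured pentose phosphate genes, of which 0 were called by limma and 2 had an unadjusted p below 0.05 (median 0.13). Among 8 regulators 0 were called (1 at an unadjusted p below 0.05). ERR read 7.31, 7.25 and 6.95 in the knock-out arrays, against 7.14, 7.04 and 6.92 in the w1118 arrays, overlapping, with a difference of 0.14 (95% interval −0.12 to 0.40; limma adjusted p = 0.571). The hypoxia-inducible factor gene sima differed by −0.33 (limma adjusted p = 0.182) and the sugar-responsive gene sug by 0.14 (0.524).

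Markers of the late embryonic tissues muscle, cuticle and neurons had lower mean levels in the knock-out arrays. Of 11 measured embryonic muscle markers, of 15 listed, limma called 5 as lower and 0 as higher, and all 11 lay below 0 with no overlap (median −0.60), against 13.1% of all genes lower without overlap. Their mean level ran from 11.27 to 11.53 in the knock-out arrays, against 11.90 to 12.09 in the w1118 arrays. Of 11 cuticle markers 4 were called as lower (median −0.37; mean level 8.75 to 8.99 in the knock-out, against 9.55 to 9.73 in w1118), and of 8 neuronal markers, of 10 listed, 1 was (median −0.39; mean level 7.16 to 7.49 in the knock-out, against 7.63 to 7.91 in w1118). Without knock-out array 1 the called markers were 4 for muscle (median −0.42), 4 for cuticle (median −0.22) and 0 for neurons (5 at an unadjusted p below 0.05; median −0.32). Of 6 midgut markers 5 differences were below 0 and 1 above (median −0.33), with mean levels that overlapped between genotypes. Of these, lambdaTry was called as lower (−0.68, limma adjusted p = 0.0268). Jon65Aiii, named after its value was seen, was higher in the knock-out without overlap (0.50, limma adjusted p = 0.0784). The early lists had medians on the other side, 0.11 for 6 maternal and germ plasm markers (of 8 listed) and 0.09 for 9 blastoderm markers (of 10 listed), with 0 called in each (2 and 0 at an unadjusted p below 0.05), and overlapping mean levels. Those 2 maternal markers went opposite ways, gcl by −0.31 (limma adjusted p = 0.136) and bcd by 0.39 (0.202). Fat body and haemocyte markers had a median of −0.03, with 0 of 6 called (2 at an unadjusted p below 0.05). The 11 markers of adult reproductive tissue, of which limma called 0 (0 at an unadjusted p below 0.05), stayed between 4.70 and 4.85 on average in the knock-out, against 4.81 and 4.83 in w1118, far below the array medians. As in any whole-embryo extract, fewer cells of a type and less RNA per cell cannot be told apart, and the part of embryo age or tissue makeup in the members' differences was not tested.

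**Figure D5:**
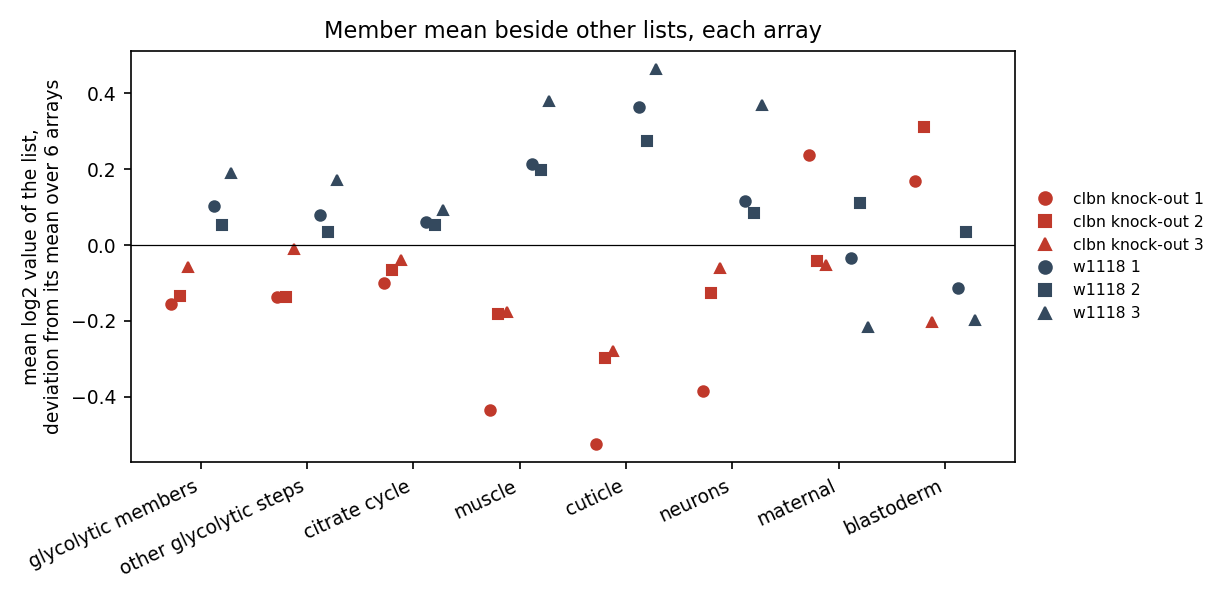
Mean log2 value of each gene list on each array, as the deviation from the list's own mean over 6 arrays (vertical axis), clbn knock-out in red to the left of w1118 in blue-grey, a symbol for each replicate number. The genotypes are apart for the members, the other glycolytic steps, the citrate cycle, muscle, cuticle and neurons and overlap for the maternal and blastoderm lists; w1118 array 3 is the highest in the first 6 lists.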

How the data were processed

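Biotinylated cRNA from whole embryos was hybridised to Affymetrix arrays, 1 sample on each of 6 arrays. The values deposited by the authors are on a log2 scale, as read from the values themselves, which run from 2.84 to 14.52 (background correction, summarisation and normalisation: not given in the sources used here). The affy software is named per the submitters' processing notes, without a version or a role. The columns were used without further normalisation, and detection calls were not used. Arrays count no molecules, and precision is limited by having 3 arrays per genotype.

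Of 18769 probe sets besides 183 controls, 13647 had 1 gene symbol in the platform annotation, which can be old, 402 had several and 4720 were not listed; 13544 were matched by gene ID to the RefSeq table of assembly Release 6 plus ISO1 MT, used for names and chromosome arms. Coordinates are not printed, because the array's build is not stated, and sequences were not used here. Differences were fitted with limma 3.58.1 in R 4.3.3 (lmFit, eBayes, no covariate) over all probe sets that are not controls, with Benjamini-Hochberg adjustment and a threshold of 0.05. SE and 95% intervals are those of the moderated fit. Lists are described by counts and medians, with no test of a list. The distance between control sets was compared in scipy 1.17.1 by an exact permutation test. The fit was tested on simulated data, with 200 sets changed in each of 5 runs. It called 0.823% of the sets changed by 0.25 log2, 41.7% at 0.5, 83% at 1 and 98.4% at 2. Of its calls 3.16% were false.

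The members and lists were chosen with earlier results of these data known. Named are the members, the GAPDH control sets, Hex-A, Hex-C, Pgi, Ald1, Gpo1, ERR, up to 4 called genes of each list or, with none called, the 2 of smallest p, and the 5 genes of most similar profile; others are said to be named after their values were seen. The labels number the arrays 1 to 3 in each genotype. Deviations from the genotype means correlated at 0.25, 0.23 and 0.39 within pairs 1, 2 and 3 and at −0.33 to 0.09 between other arrays; the pairing comes from these data, since no label names a shared day. Alternatives changed the scaling, the filter on dim sets, the block, array weights, the eBayes trend, the choice of probe set and the arrays used.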

Additional observations from a re-analysis of the deposited data

How the results depend on the processing

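The count of members called was 0 in all 15 alternatives, and the differences of the 7 members were below 0 in all of them, though not all of like size: with median centring Eno was −0.08 and Pglym78 −0.02, with array weights Pglym78 was −0.17, without knock-out array 2 or 3 it was −0.05 and −0.03, and with the mean of all probe sets Gpdh1 was −0.17, each moved by over 1.5 times. The smallest adjusted p reached was 0.0502, for Tpi. The median of the members ran from −0.30 to −0.19, and from −0.30 to −0.20 with an array left out. With the replicate block no member was called either, and the lowest adjusted p was 0.0804, for Pgk; apart from Glyp and PCB the block changed no call among the pathway genes. The count of pathway genes called, 2 as reported, was 4 with the block, 7 with array weights, 4 with an eBayes trend and between 1 and 2 with an array left out. Over all probe sets the calls were 668 as reported, 978 with the block, 1539 with array weights, 670 with the trend and 190 to 607 with an array left out. Array weights gave w1118 array 1 a weight of 4.46 and knock-out array 1 a weight of 0.37. Without knock-out array 1 the difference in the GAPDH 3′ to 5′ distance reversed to −0.0278, within a range of −0.0278 to 0.208 over the arrays left out; the cause of the other shifts was not tested. With 3 arrays per genotype, the 95% intervals of the members were wider from end to end than the differences themselves. Those of Pfk, Tpi, Gpdh1, Gapdh1 and Pgk still lay wholly below 0, but the intervals are not adjusted for the number of probe sets. No probe-level data were used to judge background.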
